A study of Mus musculus with 384 samples.

Results

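Regulatory T cells, whose identity Foxp3 fixes, were set apart here only where Foxp3 was detected. CD4 T cells without detected Foxp3 include the conventional helper cells of a tumour and can also include regulatory T cells whose Foxp3 was missed. They were taken from both CD4 plates of the series as wells labelled single cell in which at least 1000 genes reached 1 FPKM (fragments scaled to transcript length and library size) and Foxp3 stayed below 1 FPKM. The cells were thus chosen by 2 measured values, the number of detected genes and the Foxp3 level, and neither is a result here. The rule kept 88 CD4 cells, 41 of 94 single-cell wells on the plate labelled Il27ra knockout and 47 of 94 on the wild-type plate. In the whole series, each of 4 plates held 94 such wells, and 1000 genes were reached by 78 and 74 CD4 cells and by 77 and 72 CD8 cells, in each pair on the knockout-labelled and the wild-type plate.

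The study profiled T cells that had infiltrated B16F10 melanoma, a transplantable skin tumour line of C57BL/6 mice, by Smart-seq2, which amplifies full-length cDNA of single cells in plate wells. Tumour CD4 cells of a source named KO4, with the genotype label Il27ra knockout, were compared with tumour CD4 cells of a source named WT4, labelled wild type, both of strain C57BL/6. Each source gave 1 CD4 plate, with 1 well of pooled cells (the population library) and 1 well without a cell. Genotype, source and plate therefore cannot be told apart, no p-value was computed, and intervals on shares of cells cover counting error only. The ages of the mice, and whether the deletion was limited to a cell type, were not stated in the labels. A treatment note shared by all samples speaks of CD8+ cells alone, whereas the sample titles of both plates say CD4.

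IL-27 is a cytokine made mainly by myeloid cells, and it signals through a receptor of Il27ra and the shared gp130 chain (Il6st). The receptor acts through JAK kinases on STAT factors. In CD4 cells IL-27 is known to raise Tbx21 (T-bet), the factor of the Th1 programme, together with Il10 and co-inhibitory receptors, and to hold back the Th2 and Th17 programmes.

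Il27ra itself (chr8:84030294-84042589, minus strand, in GRCm38 with GENCODE M21 annotation, as for all gene positions here) did not separate the plates. It was detected, which means at 1 FPKM or more, in 18 of 41 knockout-labelled cells (43.9%, 28.5 to 60.3%) and 17 of 47 wild-type cells (36.2%, 22.7 to 51.5%), where the percentages in brackets give the share and its exact Clopper-Pearson 95% interval. Mean levels were 54.5 FPKM in knockout-labelled cells and 101.4 FPKM in wild-type cells, and the population libraries held 133.4 FPKM for knockout and 244.6 FPKM for wild type. In such pooled RNA, fewer cells with a gene and less of it per cell cannot be told apart. The part of the gene deleted was not stated in the sources used here, so reads over the whole gene neither check nor contradict the label, and the mutant plate is called knockout-labelled throughout.

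The cells carried the markers of CD4 T cells. Cd4, the co-receptor for MHC class II, was detected in 37 of 41 knockout-labelled cells (90.2%, 76.9 to 97.3%) and 42 of 47 wild-type cells (89.4%, 76.9 to 96.5%). Cd3e, a chain of the T cell receptor complex, was found in 85.4% of knockout-labelled and 85.1% of wild-type cells, and Cd40lg, the helper cell ligand of CD40, in 61% of knockout-labelled and 57.4% of wild-type cells. Cd8a was detected in no knockout-labelled cell, which with 41 cells allows a share of up to 7.32% (3 cells of the total), and in 1 wild-type cell. At least 1 of Cd3d, Cd3e and Cd3g was present in 38 of 41 knockout-labelled and 46 of 47 wild-type cells. Foxp3 chose the cells, so its level is a description: 1 knockout-labelled cell held 0.43 FPKM and 2 wild-type cells 0.41 and 0.66 FPKM, and the nearest cells left out held 1.08 FPKM on the knockout-labelled plate and 1.12 FPKM on the wild-type plate. Foxp3-negative cells were 52.6% (40.9 to 64%) of the 78 kept cells on the knockout-labelled plate and 63.5% (51.5 to 74.4%) of the 74 on the wild-type plate. At least 2 of the regulatory genes Il2ra, Ikzf2, Ctla4 and Tnfrsf18 were detected in 14 of 41 knockout-labelled cells (34.1%, 20.1 to 50.6%) and 16 of 47 wild-type cells (34%, 20.9 to 49.3%).

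Depth and other cells' RNA were as follows. Detected genes ran from 1080 to 3601 (median 2095) in knockout-labelled cells and from 1006 to 4964 (median 1966) in wild-type cells, and the nearest wells below the limit held 706 and 918. In the wells without a cell, 6 genes were detected on the knockout-labelled and 26 on the wild-type plate. Relative depth, read from the spacing of low values, had a median of 0.920 in knockout-labelled cells with the wild-type median set to 1. Of the 7 melanoma markers, Dct, Tyrp1, Mlana and Sox10 were at 0 in all knockout-labelled cells, all 7 were seen in at least 1 wild-type cell, and Tyr was found in 97.6% of knockout-labelled and 100% of wild-type cells at a mean of 9.47 and 8.11 FPKM. Their summed level ran from 0 to 102.6 FPKM in knockout-labelled and from 2.57 to 2202 FPKM in wild-type cells. Of 14 myeloid markers, 11 were seen on the knockout-labelled plate (C1qa, C1qb and Adgre1, listed as Emr1, were at 0) and 14 on the wild-type plate, and the sums ran from 0 to 101165 FPKM and from 0 to 193615 FPKM with a median of 0 in both. At least 2 myeloid markers were present in 4 knockout-labelled and 5 wild-type cells. With Tyr set aside, any marker of another cell type was detected in 15 of 41 knockout-labelled cells (36.6%, 22.1 to 53.1%) and 22 of 47 wild-type cells (46.8%, 32.1 to 61.9%).

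For every gene, log2(FPKM + 1) was averaged over the cells of each plate and the plates were subtracted, knockout-labelled minus wild type, so that a positive difference means a higher level in knockout-labelled cells. Differences on this scale combine the share of cells with a transcript and its level, and they understate changes of genes with low values. Of 6787 genes detected in at least 10% of either plate's cells, 5.44% were higher and 4.91% were lower by 1 log2 or more, and the median over all of them was 0.00. Genes that passed this filter on 1 plate only, such as Egr2, Lag3 and Il2ra, are counted through the plate where they are higher. Cells differ widely within each plate, so a difference of 1 log2 in a gene found in part of the cells can lie within counting error. Among the genes named here, the intervals of the shares do not overlap for Fos, Fosb, Egr3, Nr4a1, Ppp1r15a, Ier2, Cish, Pim1, Rgcc, Il2ra, Hspa1a, Hnrnpr and Arhgap30, and they overlap for every other one. Apart from Egr3 and Il2ra, named after their values were seen, these genes were named for differences past 1 log2. Their choice thus favours intervals that do not overlap, and the share of all 6787 genes with such intervals is not given. Without cells that held a marker of another cell type, Tyr aside, 26 knockout-labelled and 25 wild-type cells remained. In these, 18 genes named by rule lay on the other side of 1 log2 and the sign of Il18r1 and Eif3i turned. The 18 included Lag3 (1.14 log2) and Rora (-1.40 log2), which were then past 1 log2, and Ly6a (0.95), Ly6e (0.84), Hsp90aa1 (0.81), Batf (0.76), Cd274 (0.67), Gbp7 (0.57), Ly6c2 (0.51), Tbx21 (-0.24), Nkg7 (-0.25) and Cd3d (-0.30 log2), which no longer were. Among the 12 widest higher genes, 8 belong to a list of immediate early genes (Fos, Nr4a1, Ppp1r15a, Egr1, Cd69, Fosb, Ier2 and Nfkbiz), and the others are Cish, Rgcc, Glipr2 and Gadd45b.

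**Figure D1:**
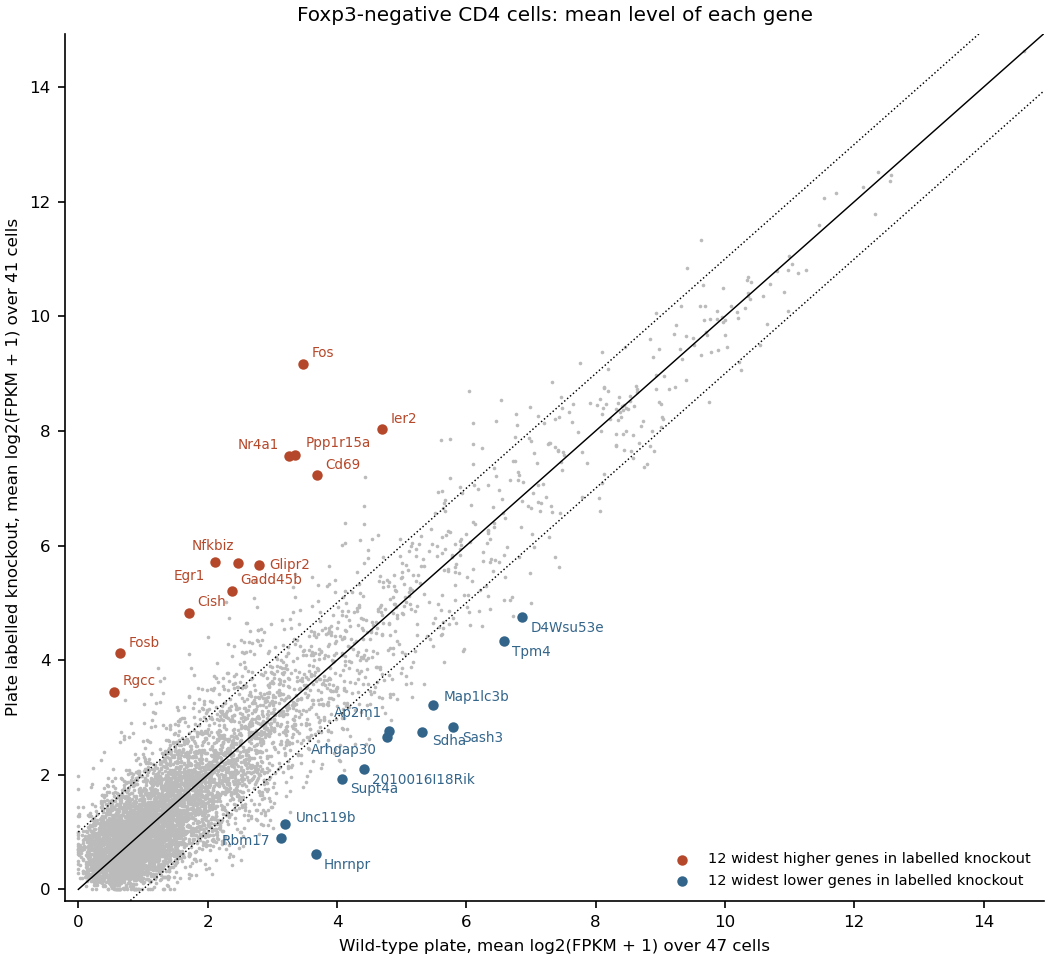
Mean log2(FPKM + 1) of 6787 genes over 41 knockout-labelled cells (vertical axis) and 47 wild-type cells (horizontal axis), each point a gene, with the line of equality and dotted lines at 1 log2 to either side. Fos lies farthest above the line, with a difference of 5.70 log2, and Hnrnpr farthest below among the named genes, with -3.06 log2.

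Immediate early genes are transcribed within minutes of T cell receptor engagement or other stimuli, without new protein synthesis, and many of them encode AP-1, EGR and NR4A transcription factors or feedback inhibitors. Many are also known to respond to cell handling. A cyclic AMP response element, the site that CREB and ATF factors bind, is a known feature of several of their promoters. The proximal promoters of 2 of the widest genes are shown as bases before the RefSeq transcript start (build GRCm38.p6), 5′ to 3′ on the gene's strand, with the core of that element, TGACGT, in capitals. The Fos stretch is chr12:85473640-85473889, plus strand, and the Ppp1r15a stretch is chr7:45526269-45526518, minus strand.
Fos: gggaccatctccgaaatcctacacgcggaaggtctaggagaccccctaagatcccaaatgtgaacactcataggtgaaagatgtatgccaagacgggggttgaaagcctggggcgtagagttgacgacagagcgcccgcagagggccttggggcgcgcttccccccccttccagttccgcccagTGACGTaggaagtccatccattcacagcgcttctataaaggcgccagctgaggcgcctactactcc
Ppp1r15a: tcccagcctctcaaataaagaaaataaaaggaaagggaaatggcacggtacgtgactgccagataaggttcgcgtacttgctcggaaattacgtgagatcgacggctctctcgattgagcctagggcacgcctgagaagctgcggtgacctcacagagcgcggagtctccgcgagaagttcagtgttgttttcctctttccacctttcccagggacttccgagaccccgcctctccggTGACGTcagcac
The core began 66 bases before the start in Fos and 12 bases before it in Ppp1r15a. TGACGT, searched on both strands within 250 bases before to 50 after the start, was present in 9 of the 21 immediate early genes with a window in the RefSeq table (42.9%) and in 8.37% of 27025 genes overall. The 9 genes were Fos, Egr2, Atf3, Nr4a3, Dusp1, Btg2, Ppp1r15a, Nfkbid and Tnfaip3. The full element TGACGTCA, which contains the core, was present in 4 of the 21 (19%) and in 2.03% of all genes.

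Immediate early genes were higher in knockout-labelled cells as a group. Of the 27 measured members of the list, 19 were higher by 1 log2 or more, where 5.44% of all genes were, and 1 was lower, where 4.91% were. Their median difference was 1.99 log2 beside 0.00 for all genes, and 26 of the 27 lay above 0. One listed gene, Ier3, was detected in fewer than 10% of the cells of either plate. Jun, Egr2, Egr3, Atf3, Ier5, Jund and Myc passed this 10% filter on the knockout-labelled plate only, where they were higher. Their place among the 27 thus favours values above 0, and Jun, Egr2 and Atf3 are among the 19. With no gene filter the list's median was 1.94 log2. Fos, a subunit of AP-1 (chr12:85473890-85477273), held a lowest, median and highest level of 0, 1375 and 11437 FPKM in knockout-labelled cells and 0, 0 and 11349 FPKM in wild-type cells. Most wild-type cells were at 0, while the highest cells of both plates were alike. Fos was detected in 36 of 41 knockout-labelled cells (87.8%, 73.8 to 95.9%) and 17 of 47 wild-type cells (36.2%, 22.7 to 51.5%), intervals that do not overlap, and its difference was 5.70 log2. As arithmetic means the levels were 2791 FPKM in knockout-labelled cells and 669.9 FPKM in wild-type cells, a difference of 2.06 log2, so most of the wider value came from the share of cells with Fos.

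Other AP-1 and EGR factors followed the same direction. Fosb, a relative of Fos that also pairs with JUN proteins (chr7:19302696-19310051), reached at most 259.2 FPKM in knockout-labelled and 124.02 FPKM in wild-type cells and was detected in 29 of 41 knockout-labelled cells (70.7%, 54.5 to 83.9%) and 7 of 47 wild-type cells (14.9%, 6.20 to 28.3%). Egr1, a zinc finger factor downstream of ERK signalling (chr18:34859823-34864984), had a median of 278.2 FPKM in knockout-labelled and 0 FPKM in wild-type cells, and its detection intervals overlapped narrowly (39.7 to 71.5% and 13.9 to 40.3%). Egr2, which restrains T cell activation, was detected in 9 knockout-labelled and 3 wild-type cells, with a difference of 1.99 log2 and overlapping intervals. Jun, Junb and Fosl2 differed by 1.88, 1.70 and 1.21 log2; they and the further members in this paragraph were named after their values were seen. Junb was detected in 95.1% of knockout-labelled and 93.6% of wild-type cells, so its difference was one of level. Jund, Egr3 and Myc did not reach 1 log2, with 0.46, 0.68 and 0.31 log2.

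The NR4A receptors are nuclear receptors without a known ligand that are induced by antigen receptor signals. Nr4a1 (chr15:101254269-101274795) had a lowest, median and highest level of 0, 593 and 5963 FPKM in knockout-labelled cells and 0, 0 and 3241 FPKM in wild-type cells. It was detected in 31 of 41 knockout-labelled cells (75.6%, 59.7 to 87.6%) and 19 of 47 wild-type cells (40.4%, 26.4 to 55.7%), and the difference was 4.31 log2. Its relatives differed less, Nr4a3 by 1.05 and Nr4a2 by 0.44 log2. Cd69, the early activation marker that keeps T cells in tissue (chr6:129267325-129275436), ran from 0 to 7428 FPKM in knockout-labelled cells with a median of 722 FPKM, and from 0 to 2636 FPKM in wild-type cells with a median of 0. Its difference was 3.54 log2, with detection in 73.2% against 42.6% of cells and intervals that overlap narrowly.

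Feedback inhibitors and further genes of the same response were mostly higher too. Ppp1r15a, the phosphatase subunit that reverses the translation block of the stress response (chr7:45522916-45526268), had a median of 611 FPKM in knockout-labelled cells and 0 in wild-type cells. It was detected in 33 of 41 knockout-labelled cells (80.5%, 65.1 to 91.2%) and 19 of 47 wild-type cells (40.4%, 26.4 to 55.7%), and the difference was 4.22 log2. Ier2, a nuclear protein of the early response, was found in 35 of 41 knockout-labelled cells (85.4%, 70.8 to 94.4%) and 25 of 47 wild-type cells (53.2%, 38.1 to 67.9%), with 3.33 log2. Nfkbiz, an atypical IκB protein, differed by 3.24 log2 with detection in 70.7% against 40.4% of cells and intervals that overlap narrowly. The MAP kinase phosphatase Dusp1, the mRNA-destabilising protein Zfp36 and the NF-κB inhibitor Nfkbia differed by 2.65, 2.27 and 2.00 log2. Dusp2, another MAP kinase phosphatase, was the 1 list member in the opposite direction, detected in 7 knockout-labelled and 15 wild-type cells and lower by 1.36 log2 with overlapping intervals, and Tnfaip3, which ends NF-κB signalling, differed by 0.28 log2 with detection in 95.1% against 91.5% of cells.

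Counted per cell, knockout-labelled cells held between 2 and 22 of the 27 immediate early genes, with a median of 16, and wild-type cells held between 0 and 19, with a median of 10. The 27 include the genes that passed the detection filter on the knockout-labelled plate only. At least 15 of the 27 were present in 26 of 41 knockout-labelled cells (63.4%, 46.9 to 77.9%) and 5 of 47 wild-type cells (10.6%, 3.55 to 23.1%). Fos, Fosb and Ier2 were all present in 25 of 41 knockout-labelled cells (61%, 44.5 to 75.8%) and 2 of 47 wild-type cells (4.26%, 0.520 to 14.5%), and Fos with Cd69 in 28 of 41 knockout-labelled cells (68.3%, 51.9 to 81.9%) and 8 of 47 wild-type cells (17%, 7.65 to 30.8%). Whether the genes share cells more often than their single shares give was not tested. The distributions overlapped: 5 of 41 knockout-labelled cells had fewer than 10 of the genes and 26 of 47 wild-type cells had 10 or more. The mean log2 level over the 27 genes was above the wild-type median in 35 of 41 knockout-labelled cells (85.4%). In cells matched 1 to 1 on the number of detected genes, 36 from each plate, Fos, Nr4a1 and Ppp1r15a differed by 5.30, 3.73 and 4.13 log2. The same sign in matched cells was a condition for the widest genes, so only the sizes of these values are a result. Handling and the time between tumour removal and lysis cannot be told apart from genotype with 1 plate each.

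**Figure D2:**
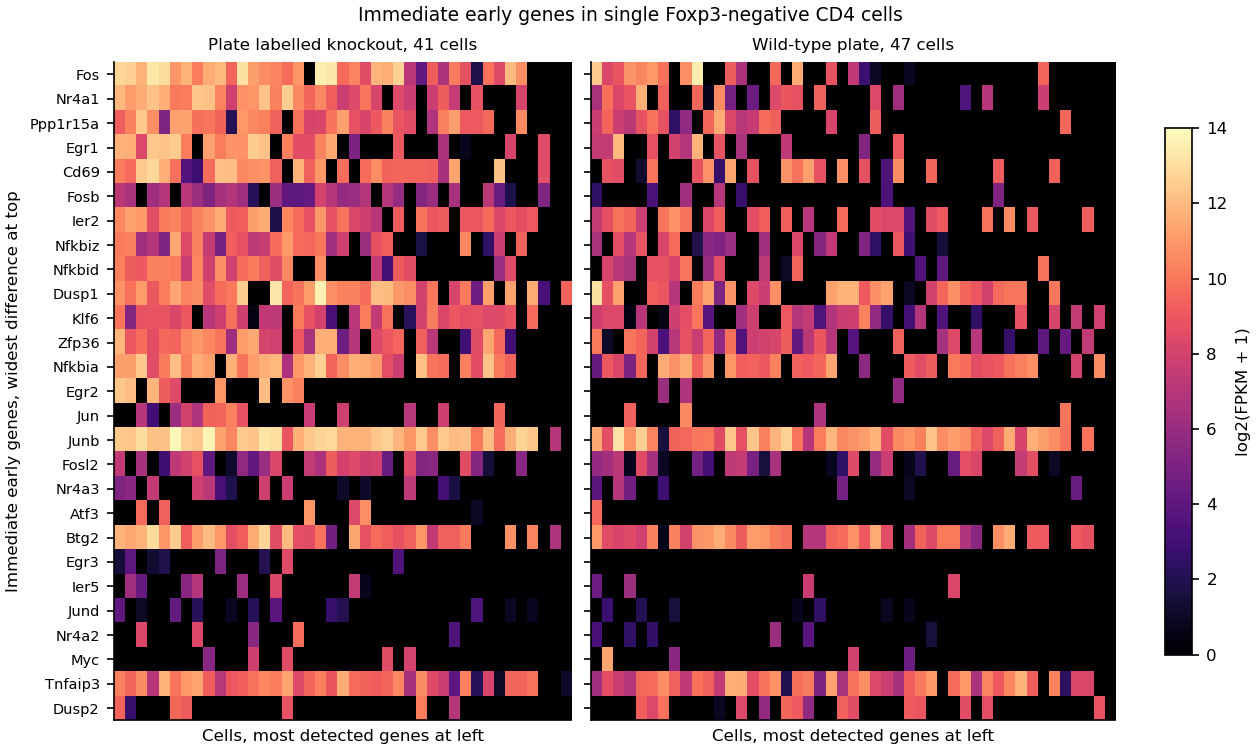
Levels of 27 immediate early genes, as log2(FPKM + 1), in 41 knockout-labelled cells (left) and 47 wild-type cells (right), with genes ordered by their difference and cells by the number of these genes detected. Knockout-labelled cells hold a median of 16 and wild-type cells a median of 10 of the genes, and black squares mark genes that were not detected.

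The immediate early genes were also compared in the other cells. In Foxp3-positive cells of the same plates, at least 15 of the 27 genes were present in 48.6% (31.9 to 65.6%) of 37 knockout-labelled and 29.6% (13.8 to 50.2%) of 27 wild-type cells. In CD8 cells, which sit on plates of their own, the shares were 41.6% (30.4 to 53.4%) of 77 knockout-labelled and 19.4% (11.1 to 30.5%) of 72 wild-type cells. The list's median difference was 1.99 log2 in Foxp3-negative, 0.12 log2 in Foxp3-positive and 1.02 log2 in CD8 cells, where the medians of all genes were 0.00, -0.17 and -0.22 log2. In the CD4 population libraries it was 1.23 log2, with 25 of 27 members above 0. Of the genes measured in Foxp3-positive cells, 4.37% were higher and 11.4% lower by 1 log2 or more, and of those in CD8 cells 2.07% and 9.19%. With 1 plate in each arm, whether these differences differ between cell types was not tested.

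Several genes of cytokine signalling were higher in knockout-labelled cells. JAK kinases and STAT factors carry the signals of IL-2, IL-7, IL-27 and interferons, and several of their target genes encode inhibitors that close the loop. Activated STAT dimers bind a gamma-activated site, TTCNNNGAA. The stretches at the RefSeq starts of Cish and Irf1 are shown with this motif in capitals (chr9:107296409-107296678, plus strand, and chr11:53769764-53770013, plus strand), as both genes are known STAT targets.
Cish: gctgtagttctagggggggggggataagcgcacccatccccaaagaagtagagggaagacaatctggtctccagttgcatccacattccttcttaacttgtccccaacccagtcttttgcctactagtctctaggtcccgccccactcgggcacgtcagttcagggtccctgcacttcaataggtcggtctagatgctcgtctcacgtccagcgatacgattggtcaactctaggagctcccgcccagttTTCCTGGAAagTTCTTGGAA
Irf1: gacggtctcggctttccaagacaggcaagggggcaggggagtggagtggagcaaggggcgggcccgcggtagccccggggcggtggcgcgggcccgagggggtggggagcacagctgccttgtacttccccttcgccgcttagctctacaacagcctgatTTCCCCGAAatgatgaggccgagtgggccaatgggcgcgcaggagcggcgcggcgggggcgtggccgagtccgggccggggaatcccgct
Cish held 2 copies, which began at the RefSeq start base and 11 bases after it; this start lies 633 bases inside the GENCODE gene. Irf1 held 1 copy, 90 bases before its start. The motif was present in 9.55% of all genes with a window and in 2 of 16 JAK-STAT and feedback genes (12.5%), so it was about as frequent in the group as elsewhere.

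Of 19 measured genes of the JAK-STAT and feedback list, 6 were higher and 1 was lower by 1 log2 or more. Among all genes the shares were 5.44% and 4.91%, and the list's median difference was 0.40 log2. Cish, a SOCS family protein that damps receptor signalling in T cells (chr9:107296026-107302784), had a lowest, median and highest level of 0, 111.8 and 4189 FPKM in knockout-labelled cells and 0, 0 and 1431 FPKM in wild-type cells. It was detected in 22 of 41 knockout-labelled cells (53.7%, 37.4 to 69.3%) and 10 of 47 wild-type cells (21.3%, 10.7 to 35.7%), intervals that do not overlap, and differed by 3.11 log2. Pim1, a survival kinase downstream of STATs, was likewise detected more often, in 22 of 41 knockout-labelled cells (53.7%, 37.4 to 69.3%) and 9 of 47 wild-type cells (19.1%, 9.15 to 33.3%), with 1.92 log2. Jak3, the kinase of the common gamma chain, was found in 73.2% of knockout-labelled and 44.7% of wild-type cells and differed by 2.65 log2 with intervals that overlap narrowly. Socs1, an inhibitor of JAK kinases, and Stat6, the factor downstream of IL-4, differed by 1.47 and 1.07 log2, both with overlapping intervals. Jak1, which pairs with gp130, was lower by 1.16 log2, found in 65.9% of knockout-labelled and 76.6% of wild-type cells. Stat3, a factor downstream of IL-27, differed by -0.49 log2. In the population libraries, which include Foxp3-positive cells, Cish measured 1581 FPKM in the knockout-labelled population library and 877 FPKM in the wild-type one, while Pim1 and Jak3 went the other way, with -0.15 and -0.31 log2.

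Th1 genes were split. Of 14 measured members, 5 were lower and 1 was higher by 1 log2 or more, beside 4.91% and 5.44% of all genes. The median was 0.10 log2, or -0.59 log2 in cells with at least 2000 detected genes. Tbx21 (chr11:97098071-97115331) ran from 0 to 1744 FPKM in knockout-labelled and from 0 to 1102 FPKM in wild-type cells, with a median of 0 on both plates. It was detected in 8 of 41 knockout-labelled cells (19.5%, 8.82 to 34.9%) and 16 of 47 wild-type cells (34%, 20.9 to 49.3%), and was lower by 1.08 log2. Cells with Tbx21 had like levels on both plates, with means of 8.77 log2 in knockout-labelled and 8.20 log2 in wild-type cells. Cxcr3, the chemokine receptor that T-bet induces, ran from 0 to 2418 FPKM in knockout-labelled and from 0 to 2720.5 FPKM in wild-type cells. It was detected in 14 of 41 knockout-labelled cells (34.1%, 20.1 to 50.6%) and 24 of 47 wild-type cells (51.1%, 36.1 to 65.9%), a difference of -1.88 log2. Ccl5, a chemokine of effector cells, Nkg7, a granule membrane protein, and Il18r1, a chain of the IL-18 receptor, were lower by 1.51, 1.15 and 1.05 log2. The detection intervals of all 5 genes overlapped between plates.

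Other Th1 genes did not follow them. Ly6c2, a surface protein of Th1 and memory cells, was higher by 1.83 log2, in 41.5% against 27.7% of cells with overlapping intervals. Ifng, Tnf and Stat4 differed by 0.56, 0.82 and -0.02 log2, and at least 1 of Ifng, Il2 and Tnf was detected in 15 of 41 knockout-labelled cells (36.6%, 22.1 to 53.1%) and 14 of 47 wild-type cells (29.8%, 17.3 to 44.9%). Without cells that carried markers of another cell type, Tbx21 differed by -0.24 log2 and Il18r1 by 0.02 log2, whereas Cxcr3 differed by -2.86 log2. In the population libraries Cxcr3 measured 715 FPKM in the knockout-labelled population library and 1327 FPKM in the wild-type one, and Tbx21 measured 59.4 FPKM in the knockout-labelled population library and 68.4 FPKM in the wild-type one. Ccl5, Nkg7 and Il18r1 lay above 0 there, with 0.10, 0.26 and 0.97 log2. The knockout-labelled population library also held more RNA of cytotoxic cells, with Cd8b1 at 122.2 FPKM against 5.34 FPKM and Gzma at 168.03 FPKM against 0 in the wild-type one, and its part in these values was not tested.

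The measured Th2 genes lay mostly on the higher side. Of 5 measured members, 3 were higher by 1 log2 or more and none was lower, with a median of 1.12 log2. Among all genes, 5.44% were higher and 4.91% lower. A gene counts as measured if either plate passes the detection filter. Il1rl1, 1 of the 3, passed it on the knockout-labelled plate only, where it was higher. Its own difference is the list's median of 1.12 log2, so that median rests on a gene the filter admitted from 1 side. Over the settings tried, the median ran from 0.32 log2 in the population libraries to 1.74 log2 with arithmetic means. It was 0.50 log2 with no gene filter, so its size depends on which genes are counted. Gata3, the Th2 factor that also serves most CD4 cells (chr2:9857078-9890034), had a lowest, median and highest level of 0, 98.3 and 4981 FPKM in knockout-labelled cells and 0, 41.1 and 1080.0 FPKM in wild-type cells. Its share of cells was 68.3% against 61.7%, with overlapping intervals. Cells that had it held 8.31 log2 on the knockout-labelled and 7.16 log2 on the wild-type plate, and its difference of 1.27 log2 combines share and level. Ccr4, a chemokine receptor of Th2, regulatory and skin-homing cells, was detected in 15 of 41 knockout-labelled cells (36.6%, 22.1 to 53.1%) and 7 of 47 wild-type cells (14.9%, 6.20 to 28.3%), overlapping intervals, and differed by 1.71 log2. Il1rl1, the IL-33 receptor, was present in 8 knockout-labelled cells at up to 646 FPKM and in 3 wild-type cells at no more than 1.26 FPKM. Il4, Il5 and Il13 were each detected in 2 knockout-labelled cells, and in 1, 0 and 0 wild-type cells.

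The helper factors were also read per cell. Gata3 without Tbx21 was found in 23 of 41 knockout-labelled cells (56.1%, 39.7 to 71.5%) and 18 of 47 wild-type cells (38.3%, 24.5 to 53.6%), Tbx21 without Gata3 in 3 and 5 cells, and both in 5 of 41 knockout-labelled cells (12.2%, 4.08 to 26.2%) and 11 of 47 wild-type cells (23.4%, 12.3 to 38%). Only Rora of the 8 Th17 genes was measured in enough cells, with -0.44 log2. Bcl6, the factor of follicular helper cells, was found in 6 and 7 cells, and Sh2d1a, the SLAM adaptor those cells need, was lower by 1.22 log2, in 4 knockout-labelled and 11 wild-type cells with overlapping intervals.

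**Figure D3:**
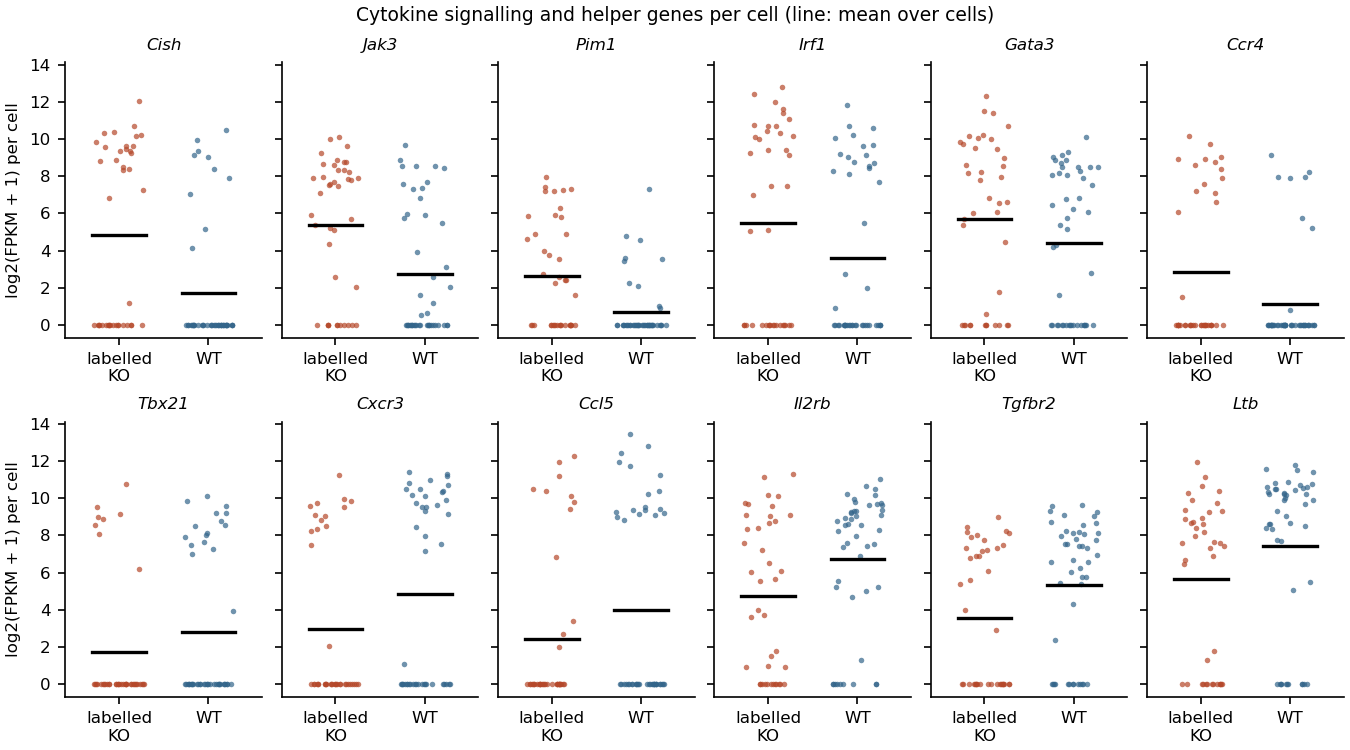
Levels of 12 genes of cytokine signalling, helper identity and homing as log2(FPKM + 1) in each of 41 knockout-labelled cells (left in each panel) and 47 wild-type cells (right), with a line at the mean over cells. For most genes the mean moves with the number of cells at 0, as for Cish, detected in 53.7% against 21.3% of cells. For Gata3, found in 68.3% against 61.7% of cells, the level of the cells that had it differs as well.

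Of 7 measured surface and cytokine genes that IL-27 is known to raise, 2 were higher by 1 log2 or more and none was lower. The shares of all genes were 5.44% and 4.91%. All 7 lay above 0, with a median of 0.44 log2. The 2 were Ly6a (Sca-1), a surface protein that interferons also induce, with 1.71 log2, and Cd274 (PD-L1), the ligand of PD-1, with 1.39 log2 and detection in 39% against 21.3% of cells, both with overlapping intervals. Pdcd1 (PD-1) was detected in 34.1% of knockout-labelled and 31.9% of wild-type cells, and Tigit in 53.7% of knockout-labelled and 51.1% of wild-type cells, with differences of 0.44 and 0.12 log2. Lag3, an MHC class II binding inhibitor, was found in 8 of 41 knockout-labelled cells (19.5%, 8.82 to 34.9%) and 3 of 47 wild-type cells (6.38%, 1.34 to 17.5%), overlapping intervals, with 0.93 log2. Lag3 passed the detection filter on the knockout-labelled plate only. Its place above 0, in this list and in the co-inhibitory list below, was therefore favoured by the filter. Havcr2 (TIM-3) was detected in 1 cell of each plate, and Il10 in 3 knockout-labelled and 2 wild-type cells, which is too few to compare. Of 9 measured co-inhibitory genes, 1 was higher by 1 log2 or more, a count near the 5.44% of all genes, and none was lower. All 9 lay above 0, with a median of 0.44 log2. The 1 gene was Vsir (VISTA), listed as 4632428N05Rik, found in 61% of knockout-labelled and 40.4% of wild-type cells with overlapping intervals and higher by 1.74 log2. In the population libraries the median of the 9 was -0.08 log2 and Vsir differed by -0.10 log2. A pair or more of these 4 receptors (Pdcd1, Tigit, Lag3, Havcr2) was present in 11 of 41 knockout-labelled cells (26.8%, 14.2 to 42.9%) and 11 of 47 wild-type cells (23.4%, 12.3 to 38%).

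Transcription factors linked to IL-27 or to T cell dysfunction included several of the higher genes. Of 14 measured members of the IL-27-linked list, 7 were higher and 1, Tbx21, was lower by 1 log2 or more. Beside them stand 5.44% and 4.91% of all genes, and the list's median was 0.81 log2. Irf1, an interferon response factor (chr11:53770014-53778374), had a lowest, median and highest level of 0, 125.7 and 6979 FPKM in knockout-labelled cells and 0, 0 and 3606 FPKM in wild-type cells, and differed by 1.85 log2. Bhlhe40, which permits cytokine production, Irf4 and Batf, which act together downstream of the antigen receptor, and Egr2 differed by 1.75, 1.37, 1.23 and 1.99 log2. The detection intervals overlapped for each of these 5 genes. Prdm1 and Maf, factors known to drive Il10 and co-inhibitory genes downstream of IL-27, differed by 0.36 and 0.00 log2, with Maf in 13 cells of each plate. Nfatc1, a calcium-dependent factor of the dysfunction list, was lower by 1.59 log2, in 36.6% against 59.6% of cells with overlapping intervals, but lay at 0.97 log2 in the population libraries.

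A few cytokine receptor and resting-cell genes were lower. Of 20 cytokine receptor genes, 3 were lower by 1 log2 or more and none was higher, beside 4.91% and 5.44% of all genes. Of the 20, 9 lay above and 11 below 0, with a median of -0.10 log2. Il2rb, the chain shared by the IL-2 and IL-15 receptors (chr15:78479256-78495271), had a median of 46.1 FPKM in knockout-labelled and 370.7 FPKM in wild-type cells, was detected in 26 of 41 knockout-labelled cells (63.4%, 46.9 to 77.9%) and 38 of 47 wild-type cells (80.9%, 66.7 to 90.9%), and differed by -1.96 log2. Tgfbr2, the TGF-β receptor, had medians of 6.44 FPKM in knockout-labelled and 99.9 FPKM in wild-type cells and differed by -1.77 log2. Il18r1, given above, was the other one. Of 15 naive and memory genes, 7 lay above and 8 below 0, with a median of -0.15 log2 that was 0.31 log2 without cells with 2 of the 4 regulatory genes. Among them 2 were lower by 1 log2 or more and none was higher: Ltb, which encodes lymphotoxin β, by 1.79 log2, and Tcf7, the factor of naive and stem-like cells, by 1.08 log2. Intervals overlapped for all of these, and Il2rb and Tgfbr2 differed by 0.17 and 0.01 log2 in the population libraries.

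The Gimap genes encode GTPases of lymphocyte survival, and all 8 measured members lay below 0, between -1.54 and -0.09 log2, with a median of -0.90 log2. Gimap1, Gimap3 and Gimap4 passed 1 log2, with -1.54, -1.37 and -1.25 log2, where 4.91% of all genes were lower by as much. Most cells of both plates expressed them, as Gimap4 was found in 82.9% of knockout-labelled and 87.2% of wild-type cells, and its median was 643 FPKM in knockout-labelled and 1024 FPKM in wild-type cells. The genes lie in 1 cluster on chromosome 6 and are close in sequence, so the division of reads among them is uncertain. In the population libraries their median was 0.01 log2, and in Foxp3-positive cells 0.13 log2.

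Homing and regulatory genes were mixed. Itgb7, the β7 integrin of gut and epithelial homing, was detected in 34 of 41 knockout-labelled cells (82.9%, 67.9 to 92.8%) and 28 of 47 wild-type cells (59.6%, 44.3 to 73.6%), overlapping intervals, and differed by 2.23 log2. Ccr2, the receptor for CCL2, differed by 1.72 log2, with 61% against 38.3% of cells, and Cd2, an adhesion receptor of T cells, by 2.12 log2, with 82.9% against 66%, both with overlapping intervals. Of 11 measured regulatory T cell genes, 1 was higher by 1 log2 or more, Capg, an actin-capping protein (2.38 log2, in 51.2% against 29.8% of cells, overlapping intervals), and none was lower, with a median of 0.66 log2. This count is near the share of all genes, 5.44% higher and 4.91% lower. Il2ra (CD25), named after its values were seen, was present in 10 of 41 knockout-labelled cells (24.4%, 12.4 to 40.3%) and 1 of 47 wild-type cells (2.13%, 0.0539 to 11.3%), with 0.90 log2. Without the cells that held 2 or more of the 4 regulatory genes, 27 knockout-labelled and 31 wild-type cells remained, and Fos, Nr4a1, Cish and Gata3 differed by 4.64, 2.79, 2.85 and 2.09 log2.

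Stress, interferon and housekeeping functions showed changes in both directions. Hspa5, the chaperone BiP of the endoplasmic reticulum, had a median of 482 FPKM in knockout-labelled and 20.3 FPKM in wild-type cells and differed by 2.75 log2, with detection intervals that overlap narrowly. Hspa1a, the inducible heat shock protein, was detected in 8 of 41 knockout-labelled cells (19.5%, 8.82 to 34.9%) and listed at 0 in all 47 wild-type cells, for which the limit of 3 cells of the total is 6.38%. The remaining measured heat shock genes, Hsp90aa1 (1.19 log2) aside, stayed within 1 log2. Of 32 interferon-stimulated genes, 4 were higher (Irf1, Ly6a, Ly6e and Gbp7) and 1 was lower (Psmb9) by 1 log2 or more, with a median of 0.30 log2. Of 22 oxidative phosphorylation genes, 4 were higher and 4 lower, and of 21 translation initiation genes, 4 were higher and 2 lower, with medians of 0.12 and -0.01 log2. Medians were -0.16 log2 for glycolysis, 0.36 log2 for proliferation and 0.08 log2 for T cell receptor signalling genes. In each of these lists 2 genes were lower by 1 log2 or more and none was higher. For all lists of this paragraph, the shares of all genes were 5.44% higher and 4.91% lower.

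**Figure D4:**
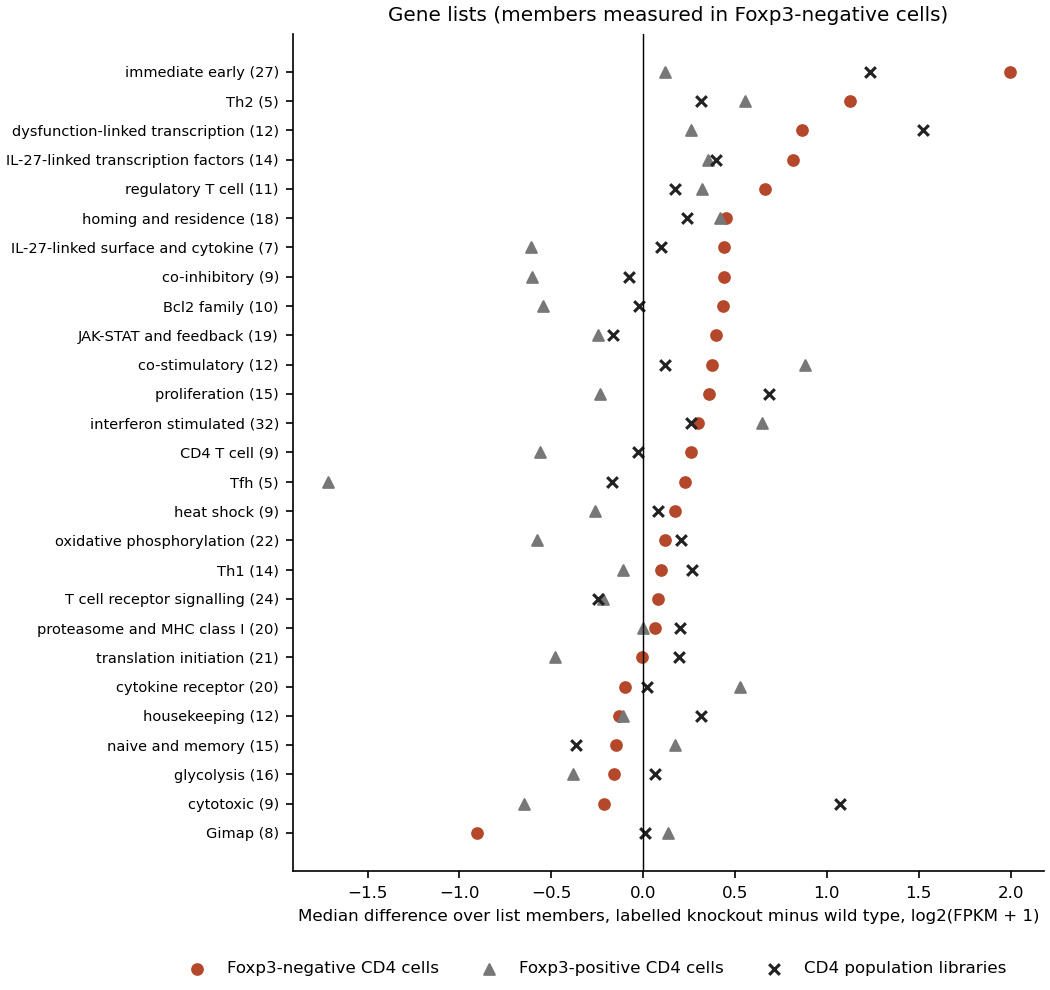
Median difference, knockout-labelled minus wild type on the log2(FPKM + 1) scale, of gene lists with at least 5 members measured in Foxp3-negative CD4 cells (circles; number of members in brackets), of the members measured in Foxp3-positive CD4 cells (triangles) and of the circles' members in the CD4 population libraries (crosses). The immediate early list lies farthest to the right for Foxp3-negative cells, at 1.99 log2, and the Gimap list farthest to the left, at -0.90 log2.

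No list used here held more than 1 of the 12 widest lower genes. Hnrnpr, an RNA-binding protein of pre-mRNA processing (chr4:136310942-136359447), ran from 0 to 226.7 FPKM in knockout-labelled and from 0 to 677 FPKM in wild-type cells. Hnrnpr was detected in 4 of 41 knockout-labelled cells (9.76%, 2.72 to 23.1%) and 24 of 47 wild-type cells (51.1%, 36.1 to 65.9%), intervals that do not overlap, and was lower by 3.06 log2. Arhgap30, a GTPase-activating protein, was found in 15 of 41 knockout-labelled cells (36.6%, 22.1 to 53.1%) and 33 of 47 wild-type cells (70.2%, 55.1 to 82.7%) and lower by 2.11 log2. Sash3, a lymphocyte adaptor protein, Sdha, the flavoprotein subunit of succinate dehydrogenase, and Map1lc3b, a protein of autophagosomes, were lower by 2.97, 2.57 and 2.27 log2, with overlapping intervals. The others (2010016I18Rik, Tpm4, Rbm17, Supt4a, D4Wsu53e, Unc119b and Ap2m1) were lower by between 2.05 and 2.31 log2. In the population libraries Hnrnpr measured 91.2 FPKM in the knockout-labelled population library and 118.6 FPKM in the wild-type one, a difference of -0.38 log2, and 5 of the 12 (Map1lc3b, Rbm17, Supt4a, Unc119b and Ap2m1) lay above 0.

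A few further genes of the widest higher group belong to no early response list used here: Rgcc, a cell cycle regulator (chr14:79288756-79301645), was detected in 17 of 41 knockout-labelled cells (41.5%, 26.3 to 57.9%) and 4 of 47 wild-type cells (8.51%, 2.37 to 20.4%) with 2.90 log2, Gadd45b, a stress sensor, in 53.7% against 25.5% of cells with 2.83 log2, and Glipr2, a Golgi-associated protein, in 61% against 31.9% with 2.86 log2. The intervals of Gadd45b and Glipr2 overlap. Rgcc measured 602 FPKM in the knockout-labelled population library and 64.3 FPKM in the wild-type one. All 12 widest higher genes were also higher in the knockout-labelled population library, by between 0.40 and 3.21 log2.

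**Figure D5:**
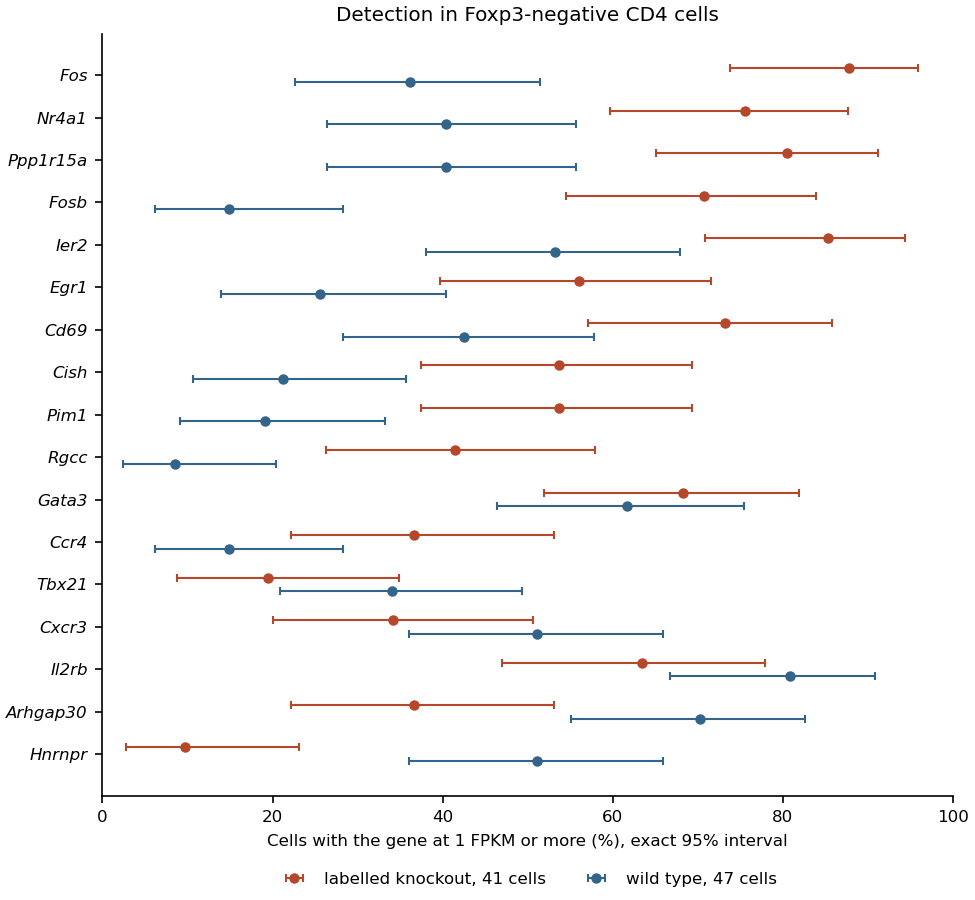
Share of cells with each of 17 genes at 1 FPKM or more among 41 knockout-labelled cells (upper point of each pair) and 47 wild-type cells (lower point), with exact 95% intervals for counting error. The intervals of Fos, Nr4a1, Ppp1r15a, Fosb, Ier2, Cish, Pim1, Rgcc, Arhgap30 and Hnrnpr do not overlap, whereas those of Tbx21 (19.5% against 34%) and Gata3 (68.3% against 61.7%) do.

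The population libraries give the same comparison in pooled cells, with Foxp3-positive cells included. Of the 6787 genes, 12.5% were higher and 13.4% lower there by 1 log2 or more. Of the genes higher by 1 log2 or more in single cells, 67.5% were also above 0 in the population libraries, and of the lower genes, 50.5% were below 0. The median of all 6787 genes there was -0.0022 log2, so the 50.5% is near the share of all genes below 0. Of the higher genes, 18.2% were also higher by 1 log2 or more there, beside 12.5% of all genes. Of the lower genes, 9.31% were also lower by 1 log2 or more, beside 13.4% of all genes.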

How the data were processed

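T cells of B16F10 tumours were profiled by Smart-seq2 in 4 plates. The authors deposited FPKM values with TMM normalization for 23420 gene symbols in 384 wells; alignment with Bowtie and quantification with RSEM on build mm10 are named in the submitters' processing notes, without versions. RSEM splits reads shared by related genes by estimate. The values are not counts, low values were too rarely whole multiples of 1 read to recover them, and absolute depth is unknown.

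Wells were grouped by sample title, and no 2 wells held identical values. Cells were kept (301 of 376 in the series) at 1000 genes with at least 1 FPKM. Differences are means of log2(FPKM + 1), pseudocount 1, over genes detected in at least 10% of either plate's cells, computed with numpy 2.4.6, pandas 2.3.3 and scipy 1.17.1. Of 6787 genes, 369 were higher and 333 lower by 1 log2 or more. With 1 plate per genotype no test was run. The code was tested on simulated data, where many unchanged genes also passed 1 log2 through the choice of cells alone. Named genes are the 12 widest per direction (detected in 20% of cells of either plate, same sign in arithmetic means, shares and matched cells), up to 4 per direction past 1 log2 from each of 35 lists (the 2 widest where none passed), and a set of helper, checkpoint and marker genes. Results for a few of the named genes are not reported here. The members and lists were chosen with earlier results of these data known. Of the listed symbols, 6 were not matched and 3 were found under older symbols.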

Additional observations from a re-analysis of the deposited data

Results flagged for a closer look

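The genes named here differed by 1 log2 or more between knockout-labelled and wild-type cells in opposite directions among Foxp3-negative and Foxp3-positive CD4 cells of the same plates. Nr4a1, a nuclear receptor induced by antigen receptor signals, differed by 4.31 log2 in Foxp3-negative and -1.05 log2 in Foxp3-positive cells. It was detected in 75.6% against 40.4% of Foxp3-negative cells and in 62.2% against 74.1% of Foxp3-positive cells, while Fos was higher in both, by 5.70 and 2.15 log2. Bhlhe40, a transcription factor that permits cytokine production, differed by 1.75 log2 in Foxp3-negative and -1.42 log2 in Foxp3-positive cells. Hsp90aa1, a cytosolic chaperone, differed by 1.19 log2 in Foxp3-negative and -2.25 log2 in Foxp3-positive cells. Cox6c, a subunit of cytochrome c oxidase, differed by 1.20 log2 in Foxp3-negative and -2.46 log2 in Foxp3-positive cells, Sdhb, a subunit of succinate dehydrogenase, differed by 1.11 log2 in Foxp3-negative and -1.42 log2 in Foxp3-positive cells, and Eif3i, a subunit of translation initiation factor eIF3, differed by 1.57 log2 in Foxp3-negative and -1.35 log2 in Foxp3-positive cells. Without cells that held markers of another cell type, Tyr aside, the Foxp3-negative difference was -0.14 log2 for Eif3i, which ends its opposite direction, and 0.81 log2 for Hsp90aa1. The median of all genes was 0.00 log2 in Foxp3-negative and -0.17 log2 in Foxp3-positive cells. The difference between the cell classes was not tested, as each arm is 1 plate.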

How the results depend on the processing

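The direction of the immediate early list was kept under every setting tried, with a median between 1.13 and 2.65 log2, but the shares of genes past 1 log2 moved widely. The shares of measured genes that were higher and lower by 1 log2 were 5.44% and 4.91% as reported, 12.4% and 11.3% with a pseudocount of 0.1, 1.43% and 0.810% with a pseudocount of 10, 12.9% and 16.3% with arithmetic means, 9.64% and 8.77% among genes found in 25% of cells, 2.98% and 2.69% with no gene filter, 11.1% and 10.4% in cells with at least 2000 genes, 2.53% and 2.51% in all kept CD4 cells and 12.5% and 13.4% in the population libraries. They were 9.93% and 8.21% without cells that held markers of another cell type, 9.86% and 5.94% in cells matched on relative depth, and 7.60% and 8.47% without cells with 2 of the 4 regulatory genes. These settings change the cells or genes used, or weigh zeros differently, and the cause of each shift was not tested. The marker setting first planned left no cell, since Tyr was found in nearly all, so it was run with Tyr set aside; this, matching on relative depth and leaving out cells with no Cd3 gene were chosen after seeing the data. The immediate early median was 2.51 log2 with a pseudocount of 0.1, 2.52 in cells with 1500 genes, 1.13 in all CD4 cells, 1.23 in the population libraries and 2.65 when matched on depth. The Th1 median was -0.53 log2 over genes in 25% of cells and -0.59 log2 in cells with 2000 genes, so its sign is not settled. The co-inhibitory median was -0.075 log2 and the Gimap median 0.010 log2 in the population libraries. There, 29 named genes past 1 log2 in single cells lay on the other side of 0, as log2 differences: 4632428N05Rik -0.10, Ap2m1 0.23, Atp5a1 -0.082, Batf -0.20, Ccl5 0.10, Cd3d 0.031, Cd3g -0.15, Cox7a2l 0.29, Dusp2 0.23, Eif3h 0.72, Eif3k -0.29, Hmgb2 0.22, Hmgn2 0.067, Hsp90aa1 -0.015, Il18r1 0.97, Il2rb 0.17, Jak3 -0.31, Map1lc3b 0.57, Nfatc1 0.97, Nkg7 0.26, Pgk1 0.054, Pim1 -0.15, Psmb9 0.42, Rbm17 0.44, Sdhd 1.15, Sh2d1a 0.47, Supt4a 0.0085, Tgfbr2 0.015, Unc119b 0.13. The sign also turned with arithmetic means for Atp5c1 (-0.0021) and Nkg7 (0.050), in cells with 2000 genes for Cox5a (0.64), Hmgb2 (0.084) and Pgk1 (0.75), in all CD4 cells for Cox6c (-0.31) and Hsp90aa1 (-0.23), without markers of other cells for Eif3i (-0.14) and Il18r1 (0.019), and matched on depth for Nkg7 (0.57). No paired analysis was possible because each genotype has 1 plate and no test was run. With 41 and 47 cells, shares that differ by less than their intervals cannot be resolved, and the read depth of a cell is unknown in absolute terms.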
